A study of Mus musculus with 7 samples.

Results

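The 10 genes Bcl11b, Fezf2, Tbr1, Sox5, Foxp2, Tle4, Nfia, Nfib, Ldb2 and Lmo3, transcriptional regulators known from the deep layers of the cerebral cortex, were followed through a single-cell RNA survey of the mouse cortex at E18.5. They were chosen by name from 23413 gene symbols, with earlier results of these data in view. The litter came from a male carrying Emx1CreERT2 and Ash1lfl/fl and a female carrying Ash1lfl/fl, and the dam received 100 mg/kg tamoxifen at E10.5. The mutants were the 4 embryos of genotype Emx1CreERT2;Ash1lfl/fl (replicates 10, 11, 12 and 17), and the controls were the 3 Ash1lfl/fl embryos (replicates 14, 15 and 16), which also carried the floxed alleles and were exposed to tamoxifen but had no Cre. Ash1l encodes a histone methyltransferase, and in the mutants the inducible Cre is driven from Emx1, a gene of dorsal forebrain progenitors and the neurons derived from them. Interneurons and other cells that come from outside that lineage are not direct targets of this Cre. Each embryo gave 1 library, and its cells were captured on the Seq-Well platform.

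Projection neurons of the cortex form inside out, the deep layers 5 and 6 before the upper layers 2 to 4, and a small network of mutually repressing factors divides them. Fezf2 and its downstream factor Bcl11b (CTIP2) specify layer 5 neurons that project to the spinal cord and brainstem, Tbr1 specifies layer 6 neurons that project to the thalamus, and Sox5 times the emergence of the deep-layer subtypes. Tle4, a Groucho corepressor, and Foxp2, a forkhead repressor, mark layer 6. Nfia and Nfib encode nuclear factor I proteins that act in radial glia and in neurons of several layers, while Ldb2 and Lmo3 encode a LIM-domain binding adaptor and a LIM-only protein of the kind that such adaptors bind.

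The deposited tables held 50191 barcodes and 62753750 unique molecular identifiers (UMIs, each standing for 1 captured RNA molecule), between 7083225 and 11859209 a library. Barcodes with at least 500 genes and at most 10% mitochondrial UMIs were kept, which left 23005 cells, 2114 to 3714 in a mutant and 2203 to 4285 in a control. The median depth was 1242 to 1722 UMIs a cell in mutants and 1343 to 2133 in controls. In these cells, 24 barcode sequences occurred in more than 1 library. Ash1l, the targeted gene, stood at 157, 154, 165 and 125 CPM (UMIs scaled to a common total, here with TMM factors) in the mutants and 166, 217 and 207 in the controls. With these factors every mutant lay below every control, as for 5.27% of the genes tested. The log2 difference was only -0.39 (SE 0.12) and was not called. Without TMM factors the groups overlapped, at 156, 157, 170 and 121 against 162, 217 and 206. The counts are given per gene and not per exon, so UMIs from outside the deleted part are included. Haemoglobin transcripts with Alas2 ranged from 1723 to 2468 CPM in mutants and from 989 to 2847 in controls.

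Cells were assigned to types by gates on marker genes that include none of the 10 regulators: a cell entered the gate whose markers made up the largest share of its UMIs relative to all cells, if at least 2 of them were detected and that ratio was at least 1.5 times the next. This placed 16689 cells (72.5%); 4323 were ambiguous and 1993 entered no gate. The deep-layer gate used 16 markers, all of them measured, and held 1508 cells with a median of 1950 UMIs. Its leading genes included the markers Hs3st4, Crym, Rprm, Nxph3 and Zfpm2, and the unused genes Nts and Tle4. Independent clustering without the 10 regulators put 46.6% of these cells in a cluster led by Nts and Hs3st4, so the gate is a marker class and not a pure population. Glutamatergic cells below are those of the upper-layer, deep-layer and migrating excitatory gates together.

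All 10 genes are protein coding. On mm10 with GENCODE M21, Lmo3 (chr6:138362918-138581968), Sox5 (chr6:143828425-144781977) and Tle4 (chr19:14448150-14598051), all on the minus strand, are shown with their promoters. The pairs of these genes were among those with the highest odds ratios of detection in the same glutamatergic cells, given below. The RefSeq table on GRCm38.p6 held 8 entries for 7 of the 10 genes, each from 250 bases before to 50 bases after a transcription start. The Lmo3 entry lies at chr6:138581919-138582218, the Sox5 entry at chr6:143947057-143947356, inside the gene and so at the start of a shorter transcript, and the second Tle4 entry at chr19:14597164-14597463. All are written 5′ to 3′ on the minus strand, and capitals mark matches, on either strand, to a T-box motif (AGGTGTGA or TCACACCT), a SOX motif (ACAATG or AACAAT, or CATTGT or ATTGTT on the other strand) and the core of the nuclear factor I site (TTGGC or GCCAA).
Lmo3: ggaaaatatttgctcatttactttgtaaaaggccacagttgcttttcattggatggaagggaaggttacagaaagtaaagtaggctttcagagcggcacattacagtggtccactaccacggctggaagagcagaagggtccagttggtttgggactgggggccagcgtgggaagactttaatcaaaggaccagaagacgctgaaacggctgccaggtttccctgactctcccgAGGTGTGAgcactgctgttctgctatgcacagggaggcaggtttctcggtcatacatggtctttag
Sox5: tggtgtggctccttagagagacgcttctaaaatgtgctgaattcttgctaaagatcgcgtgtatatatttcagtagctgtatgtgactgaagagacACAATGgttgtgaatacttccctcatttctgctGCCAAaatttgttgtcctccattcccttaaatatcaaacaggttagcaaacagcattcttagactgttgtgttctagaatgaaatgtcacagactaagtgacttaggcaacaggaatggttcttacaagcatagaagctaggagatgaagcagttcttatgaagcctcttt
Tle4: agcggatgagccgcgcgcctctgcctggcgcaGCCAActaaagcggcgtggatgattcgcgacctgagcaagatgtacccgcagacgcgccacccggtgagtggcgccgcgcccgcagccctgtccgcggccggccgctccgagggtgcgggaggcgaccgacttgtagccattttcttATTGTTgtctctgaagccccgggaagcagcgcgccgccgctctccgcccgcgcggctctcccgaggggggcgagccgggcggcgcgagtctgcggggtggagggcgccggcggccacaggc
The Lmo3 entry was the only 1 of 8 with the T-box motif, which occurred in 1.28% of the 32851 promoters of the table. The SOX motif was in 4 of the 8 entries, those of Tbr1, Nfia and Sox5 and 1 of Tle4, against 18.7% of all promoters. The nuclear factor I core was in 5 of 8 against 46.7% of all. These letters describe the windows and do not show that a factor binds there.

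The deep-layer gate had the highest mean level of Bcl11b, Fezf2, Sox5, Tle4, Ldb2 and Lmo3 among the 9 gates with at least 20 cells in every embryo. Each level is a CPM value, here UMIs of the gene scaled to all UMIs of that gate, as mean ± SD over 7 embryos, and levels are compared between gates and not between genes. Bcl11b reached 534.5 ± 60.1 in the deep-layer gate and 355.3 ± 61.2 in interneurons, and was higher in the deep-layer gate in 7 of 7 embryos. Migrating neurons followed at 273.7 ± 37.0, again with the same order in 7 of 7 embryos. The rest of these 9 gates lay between 84.1 and 131.4. Bcl11b was thus not restricted to projection neurons, and its low neighbours changed order from embryo to embryo. The striatal gate had fewer than 20 cells in mutant 11 and so was not ranked. Pooled over embryos, its 329 cells held Bcl11b at 661 CPM, above the deep-layer mean.

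Fezf2 stood at 252.1 ± 64.9 in the deep-layer gate, against 111.0 ± 9.9 in intermediate progenitors and 110.0 ± 12.7 in migrating neurons, 2 gates whose order differed between embryos. Radial glia still held 94.2 ± 24.0, while upper-layer cells held 54.8 ± 21.4. Sox5 was at 315.6 ± 94.8 in the deep-layer gate and at most 109.1 ± 47.5 elsewhere, in oligodendrocyte precursors. Tle4 reached 187.2 ± 39.7 in the deep-layer gate and its lowest level, 15.9 ± 4.4, in the upper-layer gate, below that of any other neuron or progenitor gate. Migrating neurons lay above upper-layer cells for Tle4 in 7 of 7 embryos.

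Among the LIM-pathway genes, Lmo3 was at 212.9 ± 50.7 in the deep-layer gate and 95.2 ± 22.2 in interneurons. Pooled striatal cells held Lmo3 at 118 CPM. Ldb2 was at 140.0 ± 35.9 in the deep-layer gate and 102.7 ± 39.3 in the upper-layer gate, higher in the former in 6 of 7 embryos. No other ranked gate exceeded a mean of 34.1 for Ldb2, so among the ranked gates it was highest in both layered gates. Pooled over embryos, gates too small to be ranked held more than that. Ldb2 was at 77.2 CPM in striatal, 50.2 in vascular, 41.6 in microglial and 120 in the 18 meningeal cells. It was thus not restricted to the layered gates.

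For the remaining genes another gate came first. Tbr1 was highest in Cajal-Retzius cells, the early-born neurons of layer 1, at 207.7 ± 60.7, followed by the deep-layer gate at 128.3 ± 17.5, intermediate progenitors at 112.2 ± 22.1 and the upper-layer gate at 111.2 ± 23.4. The last 3 exchanged places between embryos. Foxp2 was at 44.5 ± 27.8 in interneurons and 37.6 ± 13.1 in the deep-layer gate, and the first exceeded the second in only 2 of 7 embryos. The interneuron mean was raised by mutant 12 at 93.0 and mutant 10 at 70.1, the other embryos lying at or below 38.4. The small gate of striatal neurons, where Foxp2 was a leading gene, held 329 cells with Foxp2 at 119 CPM, and supplied 2.64% of the kept cells of mutant 12 and 1.51% of mutant 10, against 0.507% to 1.62% in the other embryos. Nfia was highest in intermediate progenitors at 330.9 ± 55.9, Cajal-Retzius cells at 330.1 ± 38.5 and radial glia at 309.3 ± 62.7, and was lowest at 103.2 ± 32.3 in the upper-layer gate and 107.3 ± 12.7 in interneurons. Nfib was detected in every gate, from 977.5 ± 150.1 in oligodendrocyte precursors to 2156.9 ± 205.8 in Cajal-Retzius cells.

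**Figure D1:**
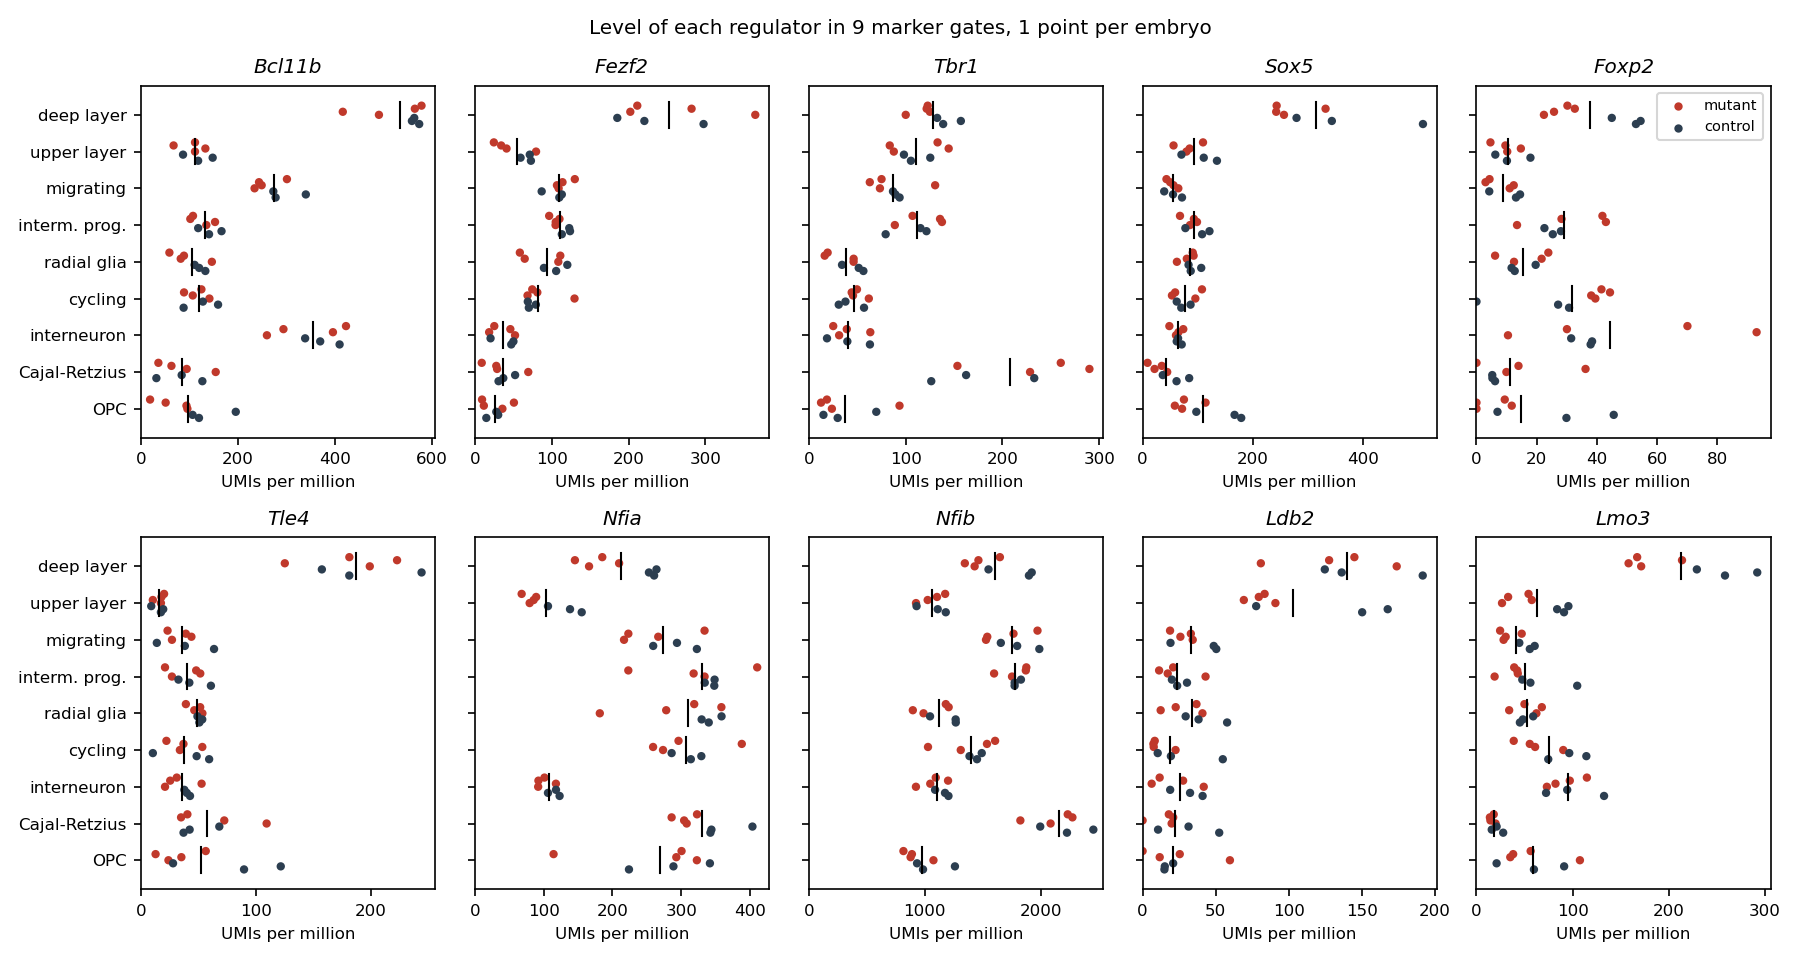
Level of each regulator (x axis, CPM, linear from 0, own scale per gene) in 9 marker gates, with 1 point per embryo (red mutant, dark control) and the mean over 7 embryos as a line. The deep-layer gate leads for Bcl11b, Fezf2, Sox5, Tle4, Ldb2 and Lmo3, while Tbr1 and Nfib peak in Cajal-Retzius cells and Nfia in progenitors and Cajal-Retzius cells.

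The gates were then compared with edgeR's quasi-likelihood test on UMIs summed per embryo and gate, with the embryo as a term and Benjamini-Hochberg adjusted p-values over all genes tested. Against the upper-layer gate, 9 of 10 regulators were called higher in the deep-layer gate, where 11.4% of the 9488 genes tested were called higher. The log2 difference was 3.52 (SE 0.12, adjusted p = 3.99e-33) for Tle4, 2.22 (SE 0.08) for Bcl11b, 2.06 (SE 0.11) for Fezf2, 1.85 (SE 0.21) for Foxp2, 1.73 (SE 0.09) for Sox5 and 1.69 (SE 0.11) for Lmo3. It was smaller for Nfia at 0.97 (SE 0.09), Nfib at 0.56 (SE 0.05) and Ldb2 at 0.38 (SE 0.10, adjusted p = 0.00381). Tbr1 was not called, at 0.20 (SE 0.09, adjusted p = 0.111), but was called without mutant 10 (0.27) or mutant 12 (0.26), while Ldb2 was no longer called at a mitochondrial limit of 5%.

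Against interneurons 9 of 10 were again called higher (19.1% of 9335 genes), led by Fezf2 at 2.77 (SE 0.12), Ldb2 at 2.46 (SE 0.15), Tle4 at 2.37 (SE 0.14) and Sox5 at 2.33 (SE 0.10), with Bcl11b at 0.62 (SE 0.07). Foxp2 was the exception at -0.03 (SE 0.21, adjusted p = 0.938), a value that turned positive without mutant 10 (0.19) or mutant 12 (0.22). Against radial glia 9 were called higher (27.1% of 9802 genes), led by Bcl11b at 2.39 (SE 0.11), and Nfia was called lower at -0.45 (SE 0.10, adjusted p = 6.57e-05), as were 27.7% of genes. A comparison with migrating neurons, added after the data were seen, called 8 higher (14.4% of 9626 genes), led by Sox5 at 2.53 (SE 0.10). It called Nfia lower at -0.36 (SE 0.08) and Nfib lower at -0.13 (SE 0.05, adjusted p = 0.0396), where 13.3% of genes were lower. The Nfib call was lost without mutant 10 (-0.11), mutant 11 (-0.11), mutant 12 (-0.13) or control 16 (-0.14).

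By the rule used here, the gene outside the set whose level over 63 sums of a gate and an embryo (9 gates) followed each regulator best was Rprm for Sox5 (Pearson r = 0.852), Sla for Ldb2 (0.848), Plcb1 for Nfib (0.819), Nfasc for Tbr1 (0.812), Hs3st4 for Tle4 (0.775), Xpr1 for Bcl11b (0.775), Nin for Lmo3 (0.771), Mctp1 for Fezf2 (0.734), Slc1a2 for Nfia (0.717) and Syt6 for Foxp2 (0.615). Rprm, Hs3st4 and Syt6 were themselves markers of the deep-layer gate. Within the set the closest pair was Sox5 with Lmo3 (r = 0.711) and the farthest Nfia with Ldb2 (r = -0.352). The sums share libraries and differ in depth, so these coefficients are descriptions.

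Detection in single cells was sparse. With every cell thinned to 1000 UMIs, Bcl11b was found in 36.1% of 1241 deep-layer cells, Sox5 in 24.5%, Fezf2 in 19.5%, Lmo3 in 18.3% and Foxp2 in 4.27%. In 198 microglial and vascular cells, which should lack most of these neuronal genes, the shares were 8.59% for Bcl11b, 2.53% for Sox5, 5.56% for Fezf2, 4.04% for Lmo3 and 1.52% for Foxp2. Nfib was found in 74.2% and 47.5%. Before thinning, the medians of the 2 sets were 1950 and 1722.5 UMIs. Shares in the upper-layer gate for Fezf2 (4.91%) and Lmo3 (4.71%) were near those of the non-neuronal cells. That for Tle4 (1.77%, exact binomial 95% interval 1.29% to 2.36%) was below theirs (5.05%, 2.45% to 9.09%). The non-neuronal share of Tle4 is thus not its lowest level. These non-neuronal shares therefore do not set a background level, and whether the low upper-layer shares reflect expression was not tested.

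For most pairs of regulators, both genes were detected in the same cell more often than independent detection would give, and for Ldb2 with the nuclear factor I genes less often. In 6101 glutamatergic cells thinned to 1000 UMIs, the odds ratio of finding both genes, stratified by embryo (Mantel-Haenszel), was above 1 in 7 of 7 embryos for 23 of the 45 pairs and below 1 in all of them for 2. It was highest for Tle4 with Lmo3 at 4.53 (1.82 to 19.0 over embryos, 77 cells with both), Foxp2 with Tle4 at 4.10 (2.26 to 21.5, 21 cells), Sox5 with Tle4 at 3.84 (2.94 to 5.61, 94 cells) and Sox5 with Lmo3 at 3.25 (2.86 to 4.62, 111 cells). Nfia with Nfib, paralogs on chromosome 4, stood at 2.76 (2.08 to 4.55). No doublets were removed, but without the 5% of cells with most UMIs the first 4 ratios were 4.77, 3.68, 3.84 and 3.18.

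The 2 pairs below 1 both joined Ldb2 to a nuclear factor I gene. Nfia with Ldb2 was at 0.61 (0.27 to 0.79) and Nfib with Ldb2 at 0.67 (0.48 to 0.83). Without thinning these ratios were 1.25 and 1.15, and deeper cells hold more of every gene. Fezf2 with Tbr1, regulators of alternative fates, was at 1.16.

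The gate a cell belongs to can add to these ratios, and its part was not tested. The same ratios were computed in the 1241 deep-layer cells alone, where fewer cells also make 7 of 7 embryos harder to reach. There 11 of 45 pairs exceeded 1 in 7 of 7 embryos, with Tbr1 and Tle4 at 3.50 (1.16 to 8.28), Foxp2 and Tle4 at 3.25 (1.87 to 27.3), Nfia and Nfib at 2.92 (1.64 to 4.31), Tle4 and Nfib at 2.42 (1.19 to 4.31) and Sox5 and Tle4 at 2.11 (1.34 to 3.46). Tle4 with Lmo3 was at 2.45 with a range of 0.69 to 15.6. Nfib with Ldb2 remained below 1 in each embryo, at 0.68 (0.43 to 0.98).

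**Figure D2:**
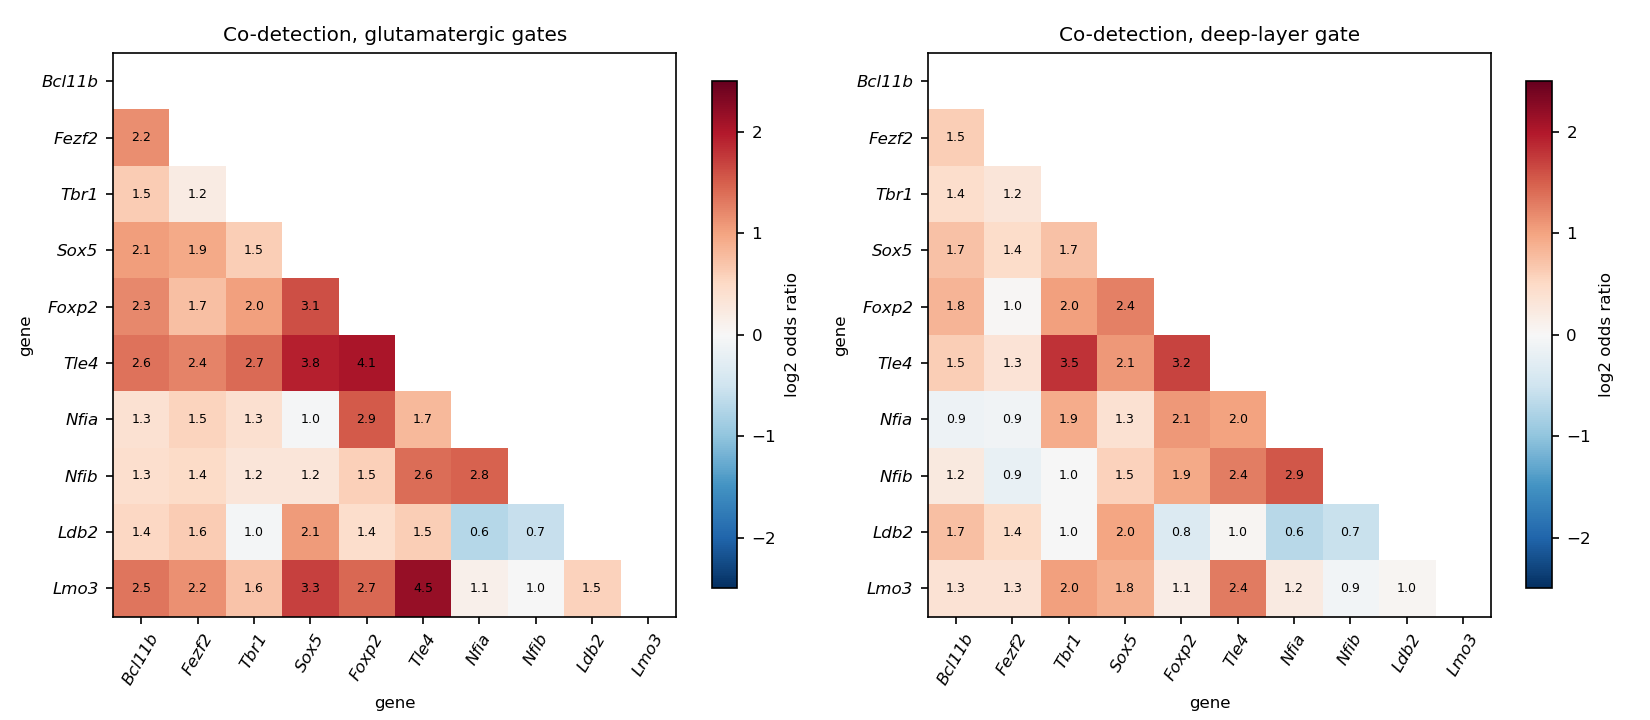
Odds ratio of detecting both genes of a pair in the same cell (numbers; colour is its log2), stratified by embryo and with cells thinned to 1000 UMIs, in the glutamatergic gates and in the deep-layer gate. Tle4 has the highest ratios with Lmo3, Foxp2 and Sox5 in the glutamatergic gates, and Ldb2 has ratios below 1 with Nfia and Nfib.

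Mutants and controls were then set side by side. The regulators were chosen with this contrast in view, so the values are descriptions, and in bulk sums fewer cells of a type and less RNA per cell cannot be told apart. Over all kept cells, levels below are CPM after TMM scaling. Lmo3 stood at 61.7, 65.4, 62.0 and 68.9 in mutants 10, 11, 12 and 17, and at 99.9, 101 and 100 in controls 14, 15 and 16. Every mutant lay below every control, as for 5.27% of the genes tested, and the log2 difference was -0.64 (SE 0.10). Bcl11b stood at 240, 183, 228 and 218 in mutants and 254, 276 and 250 in controls, also without overlap, at -0.26 (SE 0.11).

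Ldb2 was at 50.4, 43.2, 27.3 and 69.5 in mutants and 54.4, 79.7 and 90.3 in controls, with a log2 difference of -0.65 (SE 0.23), and mutant 17 lay above control 14. Sox5 was at 91.0, 86.5, 77.7 and 105 against 100, 124 and 147, at -0.46 (SE 0.14), again with mutant 17 above control 14. Both genes were therefore lower on average but overlapped between the groups. Nfia was at 236, 193, 206 and 181 against 249, 227 and 247 (log2 -0.24, SE 0.11), and Tle4 at 49.7, 48.6, 47.6 and 60.4 against 47.4, 66.0 and 69.1 (log2 -0.24, SE 0.14). The difference was -0.15 (SE 0.12) for Nfib, -0.07 (SE 0.12) for Tbr1, -0.06 (SE 0.17) for Fezf2 and -0.06 (SE 0.25) for Foxp2.

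All 10 differences were negative, where 49.5% of the 12893 genes tested were. None was called at an adjusted p of 0.05 by edgeR's quasi-likelihood test, at which 0.00776% of genes were called lower, and 5 had an unadjusted p under 0.05, against 5.44% of genes in that direction. DESeq2 called Lmo3, as did edgeR once mutant 17 was left out. Summed markers differed beside these values: the 12 upper-layer markers totalled 1290 to 1431 CPM in mutants and 1569 to 1670 in controls, without overlap, and the 16 deep-layer markers 454 to 673 and 664 to 717, none of either list being at 0. Their part in the result was not tested, and values within gates follow.

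**Figure D3:**
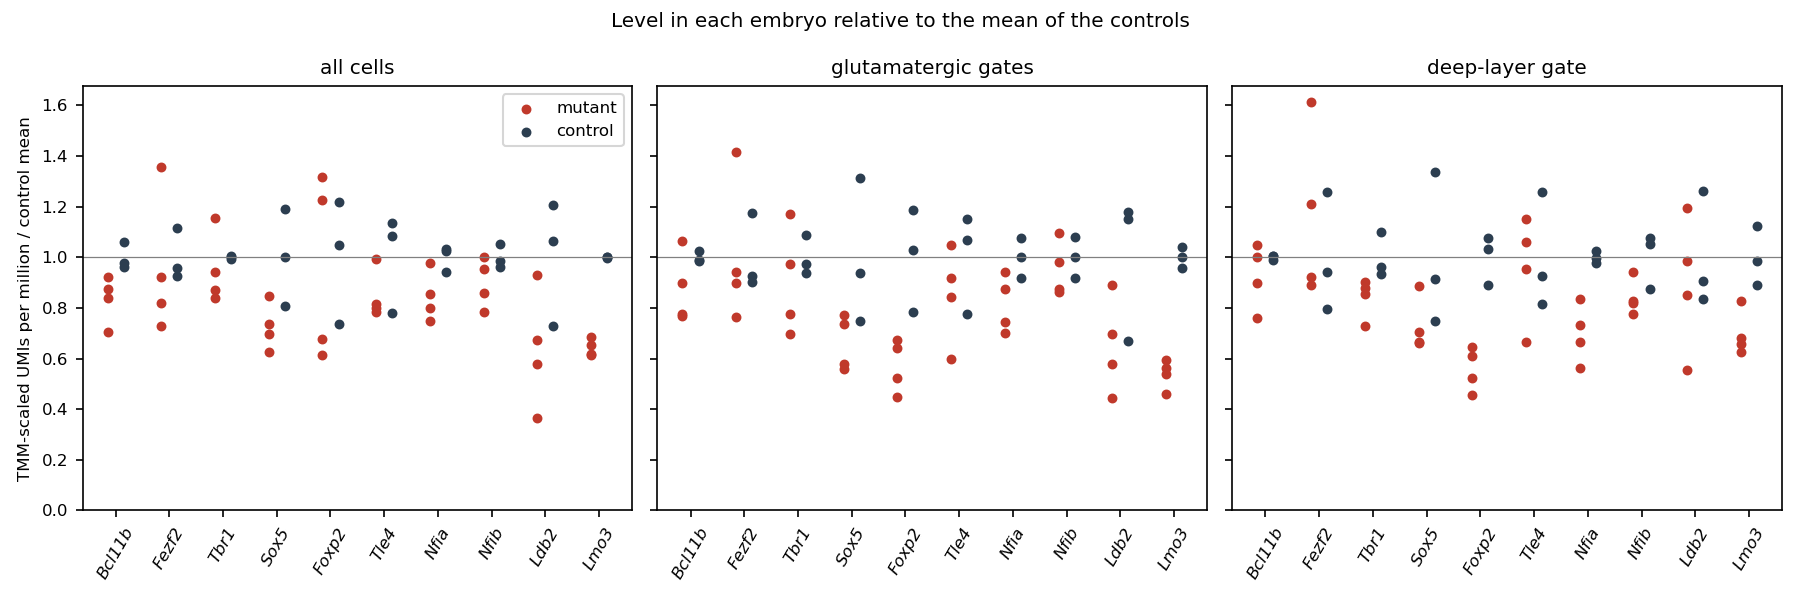
TMM-scaled level in each embryo divided by the mean of the 3 controls (y axis, linear from 0) for each regulator in all cells, the glutamatergic gates and the deep-layer gate, with mutants in red and controls dark. Lmo3 lies below every control in all mutants in each panel, Foxp2 in the glutamatergic and deep-layer panels only, and Fezf2 of mutant 17 lies above the controls in each.

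In the glutamatergic gates Lmo3 was at 75.4, 68.7, 58.8 and 71.4 in mutants and 122, 133 and 127 in controls, a mean of 68.6 ± 7.09 (SD, n = 4) against 127 ± 5.36 (SD, n = 3). The log2 difference was -0.89 (SE 0.12), 1.85-fold lower, and Lmo3 was the 1 regulator among the 6 genes called lower (0.0555% of 10806). Foxp2 did not overlap either, and 5.72% of genes separated in this direction; it was at 11.7, 10.1, 15.1 and 14.4 against 17.6, 26.6 and 23.1 (log2 -0.80, SE 0.22), although over all cells, interneurons and striatal cells included, its difference was near 0. The values were -0.61 (SE 0.20) for Ldb2, -0.60 (SE 0.16) for Sox5, -0.30 (SE 0.12) for Nfia and 0.01 (SE 0.17) for Fezf2. The upper-layer markers totalled 1664 to 1721 CPM in these cells in mutants and 1823 to 2131 in controls.

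Inside the deep-layer gate no regulator was called (0.0114% of 8739 genes were called lower; 4 of the 10 had an unadjusted p under 0.05, against 3.12% of genes; DESeq2 called none). For 4 regulators every mutant lay below every control, as for 3.76% of the genes tested. Foxp2 was at 31.2, 33.1, 26.8 and 23.4 against 45.7, 55.0 and 52.9 (log2 -0.87, SE 0.25), Nfia at 191, 147, 218 and 174 against 268, 256 and 260 (log2 -0.53, SE 0.14), Lmo3 at 172, 217, 164 and 179 against 233, 295 and 258 (log2 -0.52, SE 0.15), and Tbr1 at 127, 123, 130 and 105 against 135, 159 and 139 (log2 -0.27, SE 0.16). In cells of this gate thinned to 1000 UMIs, the share with at least 1 UMI separated the groups only for Nfia among these 4. UMIs per positive cell separated them for Tbr1. Foxp2 was found in just 14 mutant and 39 control cells. At 1500 UMIs the share separated the groups for Nfia and Lmo3 but not for Foxp2 or Tbr1. The share of all genes that separate on these positive-cell measures was not computed. In the deep-layer gate Sox5 was at -0.46 (SE 0.16), with overlap.

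For the layer 5 regulators the mutants did not all lie below the controls in the deep-layer gate. Bcl11b was at 596, 571, 432 and 512 against 572, 564 and 573 (log2 -0.10, SE 0.13), and Fezf2 at 218, 286, 210 and 381 against 188, 223 and 298 (log2 0.25, SE 0.18). Tle4 at -0.03 (SE 0.17) and Ldb2 at -0.09 (SE 0.19) were also close to 0. The summed deep-layer markers of the gate overlapped, at 1947 to 2360 CPM in mutants and 2220 to 2524 in controls, and 1 of the 16 had no UMI there.

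In the upper-layer gate, a fit added after the data were seen, Lmo3 and Nfia were 2 of the 14 genes called lower (0.155% of 9023), and every mutant lay below every control for both, as for 5.18% of genes. The gate's own 12 markers also separated the groups there, at 3107 to 3406 CPM in mutants and 3421 to 3610 in controls, none of them at 0, and their part in the result was not tested. Lmo3 was at 55.7, 33.0, 57.9 and 27.3 in mutants and 98.5, 84.4 and 91.5 in controls (log2 -1.11, SE 0.20), and Nfia at 70.0, 89.5, 86.1 and 81.8 against 110, 139 and 156 (log2 -0.72, SE 0.16). Both calls were lost without mutant 11, and that of Nfia also without mutant 10, mutant 12, control 15 or control 16; the difference then lay between -1.29 and -0.90 for Lmo3 and between -0.85 and -0.60 for Nfia over all alternatives. In the same gate Fezf2 was called without mutant 17 (-1.01) and Ldb2 without control 14 (-0.95) or without the low-count filter (-0.72). After thinning, Lmo3 was found in 4.71% and Nfia in 10.1% of upper-layer cells, against 4.04% and 10.1% of microglial and vascular cells. By group the upper-layer share of Lmo3 was 3.02% ± 1.08 in mutants and 6.37% ± 0.540 in controls. That of Nfia was 7.16% ± 1.52 and 12.3% ± 1.42. Both calls thus concern sparse counts close to the non-neuronal shares. Ldb2 was at -0.70 (SE 0.19) with overlap, and Nfib and Tbr1 at -0.02 and 0.02. Whether these differences are larger here than in the deep-layer gate was not tested.

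Outside the layered gates no regulator was called lower in intermediate progenitors, radial glia, interneurons or migrating neurons, where the background was 0% (of 7369 and 8708 genes), 0.012% and 0.0112%. DESeq2 called none there either, and an unadjusted p under 0.05 was reached by 1 regulator in intermediate progenitors, 1 in migrating neurons and none in the other 2 gates. Lmo3 was at -0.98 (SE 0.31) in intermediate progenitors and -0.69 (SE 0.23) in migrating neurons, but at 0.09 (SE 0.26) in radial glia and -0.10 (SE 0.21) in interneurons. Foxp2 was at 0.58 (SE 0.38) in interneurons. These differences between gates were not tested.

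**Figure D4:**
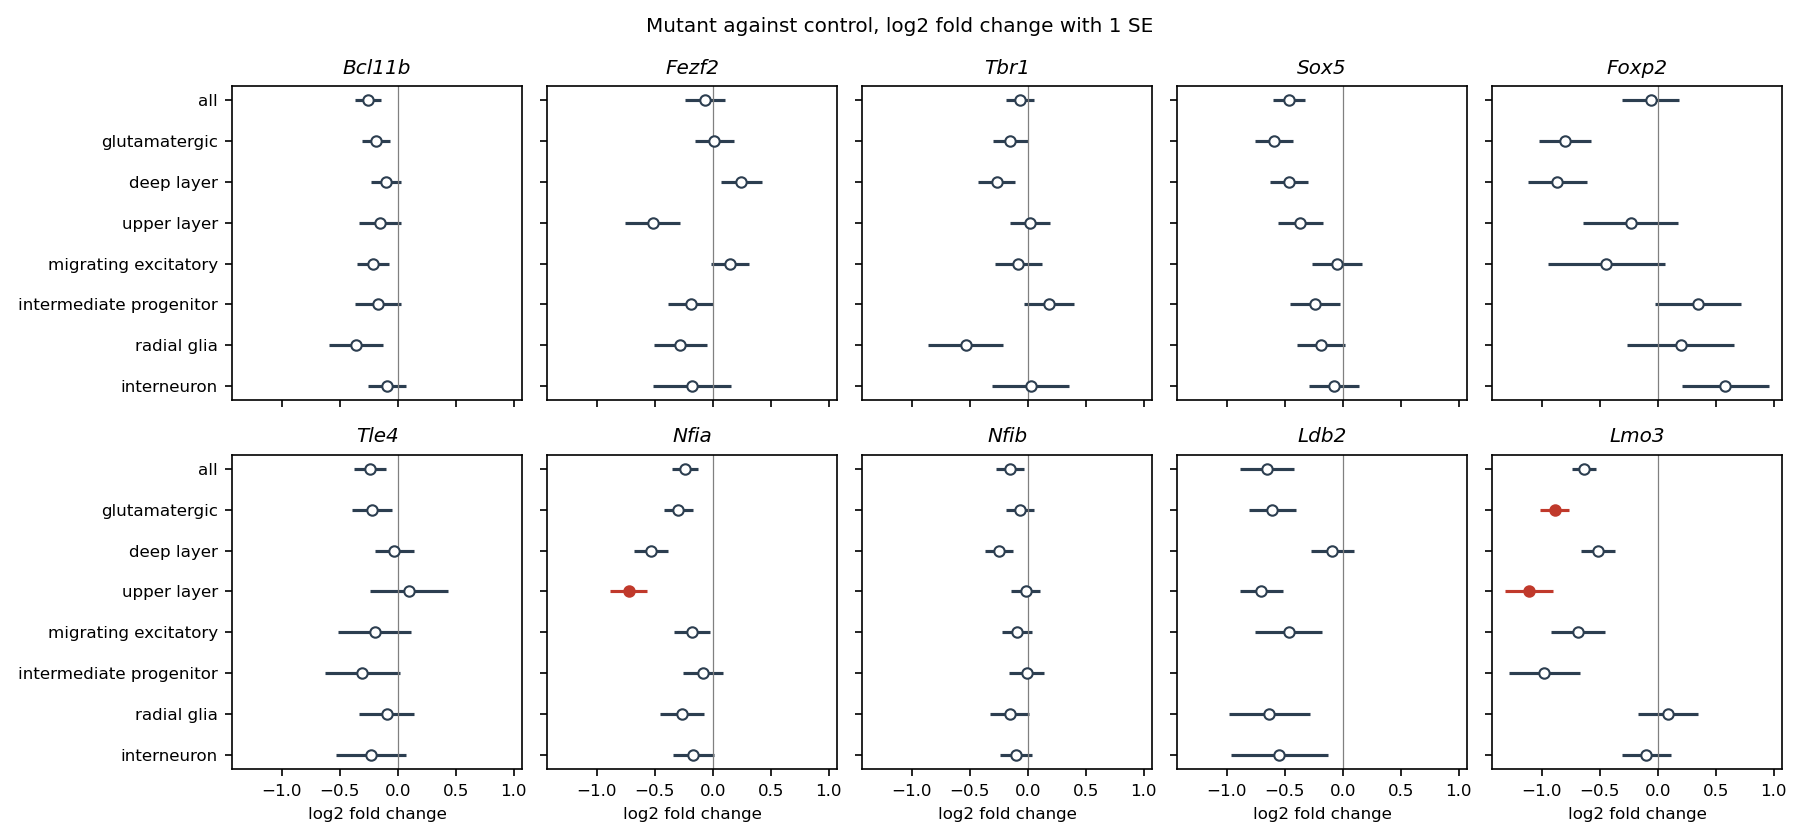
Log2 fold change of mutants against controls (x axis, with 1 SE) for each regulator in all cells, the glutamatergic gates and 6 single gates; filled red points are called at an adjusted p of 0.05, and Ldb2 was not tested in intermediate progenitors. Lmo3 is called in the glutamatergic and upper-layer gates and Nfia in the upper-layer gate.

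The share of cells in the deep-layer gate was 5.49%, 4.69%, 3.34% and 7.72% in mutants 10, 11, 12 and 17 and 7.94%, 8.50% and 7.77% in the controls. Every mutant lay below every control, mutant 17 by little, and the means were 5.31% ± 1.83 (SD, n = 4) and 8.07% ± 0.38 (SD, n = 3). The exact two-sided permutation test gave p = 0.0571, where 35 splits of the embryos allow no less than 0.0286, and 0.152 after Benjamini-Hochberg adjustment over 8 gates. After thinning every cell to 1000 UMIs before gating, the groups overlapped, at 4.75% and 6.82% (exact permutation p = 0.143), as they did with at least 3 markers (p = 0.0857), with clusters (p = 0.143) and at a mitochondrial limit of 5% (p = 0.0857). The upper-layer gate held 13.5% ± 1.81 of mutant and 17.0% ± 1.26 of control cells and radial glia 10.6% ± 0.729 and 8.89% ± 1.26, neither overlapping (exact permutation p = 0.0571 and adjusted p = 0.152 for each). The radial glia groups overlapped after thinning (exact permutation p = 0.143), with at least 3 markers (p = 0.143), with clusters (p = 0.429) and with at least 300 genes per cell (p = 0.143), whereas the upper-layer groups did not overlap under any of these 4 settings.

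To set cell numbers apart from levels, each embryo was recomputed with the share of every gate held at its mean over the 7 embryos. Averaged over cells as UMIs per 10000 of the cell, the log2 difference moved from -0.53 to -0.47 for Lmo3, from -0.68 to -0.56 for Ldb2, from -0.39 to -0.29 for Sox5 and from -0.33 to -0.25 for Tle4. It was -0.28 and -0.29 for Bcl11b and -0.27 and -0.29 for Nfia. Lmo3, Bcl11b and Nfia showed no overlap of the groups before or after, and the others overlapped both times. Neither level was computed for other genes, so how often such a separation occurs is not known. Most of each difference remained at equal gate shares, except for Tbr1, which went from -0.07 to -0.01. The 4323 ambiguous cells and the 1993 without a gate were each held as a group of their own. Makeup inside a gate or group was not held equal, so it cannot be told apart from level here.

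**Figure D5:**
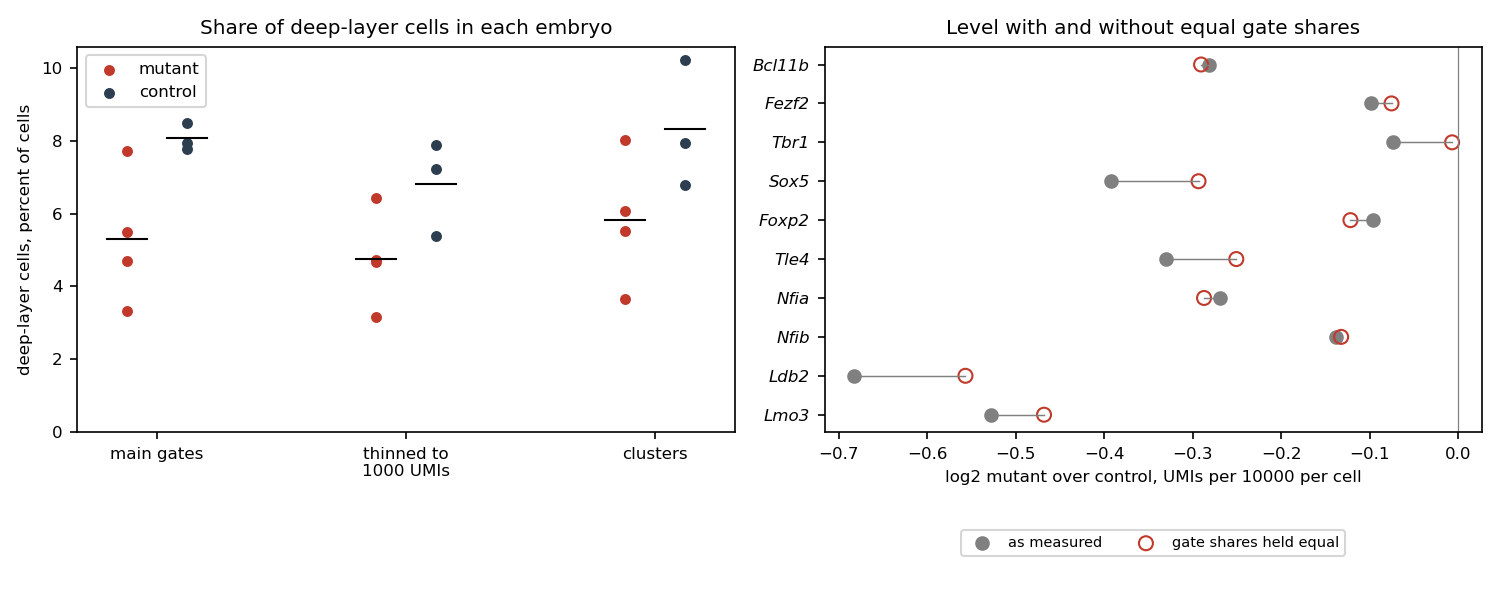
Left, percent of cells in the deep-layer gate or cluster per embryo (red mutant, dark control, line at the group mean) under 3 ways of assigning cells. Right, log2 mutant over control of the mean UMIs per 10000 per cell, as measured (grey) and with gate shares held equal (open red); the points for Bcl11b, Nfia and Nfib nearly coincide, while those for Sox5, Tle4 and Ldb2 move towards 0.

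The same question was put to cells positive for each gene, that is with at least 1 UMI of it. Among cells thinned to 1000 UMIs (8844 mutant and 7754 control cells), Lmo3 was found in 4.62%, 5.69%, 5.15% and 4.89% of cells in mutants and in 6.49%, 8.17% and 7.54% in controls. Positive cells held 1.21 ± 0.0454 UMIs of Lmo3 in mutants and 1.28 ± 0.0766 in controls, overlapping. The difference thus lay mostly in the share of positive cells (log2 -0.54) and little in the UMIs per positive cell (log2 -0.09). At this depth the second value is near its minimum of 1, so a lower level per cell also appears as fewer positive cells, and the 2 cannot be told apart fully.

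Bcl11b was found in 15.9% ± 1.25 of mutant and 18.4% ± 1.02 of control cells and Nfia in 16.5% ± 1.25 and 19.2% ± 0.52, both without overlap. At 1500 UMIs Bcl11b overlapped, at 21.6% and 24.4%, while Nfia did not, at 23.3% and 26.4%. Without thinning both overlapped. The share of all genes that separate on this measure was not computed. Ldb2 was found in 3.89% ± 1.43 and 5.58% ± 1.36, Sox5 in 7.64% ± 0.622 and 9.08% ± 2.16, and Tle4 in 3.96% ± 0.443 and 5.05% ± 1.17, all overlapping. Fezf2 was found in 7.98% ± 2.21 and 7.76% ± 0.802 and Tbr1 in 8.02% ± 1.24 and 7.99% ± 0.132. The microglial and vascular cells gave 4.04% for Ldb2 (8 of 198 cells) and 5.05% for Tle4 (10 of 198), at or above the mutant shares. Ldb2 was lower still in interneurons (2.06%) and radial glia (3.53%), and higher in upper-layer (8.44%) and deep-layer cells (11.4%). Tle4 was lower in upper-layer cells (1.77%), interneurons (3.16%) and radial glia (3.95%), and higher in deep-layer cells (16.4%). The non-neuronal shares are thus not a lowest level, and this comparison does not place the mutant shares at background. UMIs per positive cell overlapped between the groups for all 10 genes, including Nfib, the 1 gene well above the minimum, at 2.10 ± 0.165 and 2.26 ± 0.052.

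Without thinning, Lmo3 was found in 8.49% of mutant and 12.8% of control cells, and positive cells held 5.08 ± 1.22 and 4.88 ± 0.638 UMIs of it per 10000. As plain counts, positive cells held 1.49 ± 0.137 UMIs in mutants and 1.91 ± 0.390 in controls. All of these unthinned values depend on the depth of the cells, which was not held equal, so they do not set share and level apart. In the glutamatergic gates after thinning to 1000 UMIs, Lmo3 was the 1 regulator for which both the share of positive cells and the UMIs per positive cell separated the groups. How often other genes separate on these measures was not computed. Lmo3 was found in 4.49%, 5.87%, 5.07% and 5.54% of cells in mutants and 7.19%, 10.7% and 8.07% in controls, and positive cells held 1.27 ± 0.0596 and 1.42 ± 0.0748 UMIs (log2 -0.16). At 1500 UMIs the shares of positive cells still separated the groups, at 7.50% and 12.3%, but the UMIs per positive cell overlapped, at 1.43 ± 0.122 and 1.47 ± 0.183 (log2 -0.04).

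Leaving out Nfib, which most cells contained, a thinned deep-layer cell held on average 1.46 ± 0.127 of the other 9 regulators in mutants and 1.70 ± 0.0583 in controls, with no overlap. An upper-layer cell held 0.499 ± 0.0554 and 0.645 ± 0.0853 and a glutamatergic cell 0.769 ± 0.040 and 0.942 ± 0.0894, also with no overlap. In the upper-layer gate the separation was minimal, with mutant 12 at 0.5464 and control 14 at 0.5472. This measure was not computed for other gene sets, so how often such a separation occurs is not known. Interneurons, at 0.614 ± 0.0852 and 0.671 ± 0.0725, and radial glia, at 0.622 ± 0.0932 and 0.678 ± 0.057, overlapped.

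Related genes were taken from 3 lists. Over all cells none of the 14 tested of 16 other deep-layer genes, which are the markers of the deep-layer gate, was called by edgeR in either direction, 12 were negative, 4 of them with an unadjusted p under 0.05, DESeq2 called none, and the median log2 difference was -0.17, against 0.00 over all genes. The smallest p-values were those of Rprm at -0.59 (SE 0.17), Hs3st4 at -0.85 (SE 0.28), the nuclear receptor gene Nr4a2 at -0.70 (SE 0.23) and Ctgf, a gene of subplate and layer 6b, at -0.54 (SE 0.23). Of 17 tested paralogs and partners none was called by edgeR or DESeq2, 11 were negative, 2 with an unadjusted p under 0.05, and the median was -0.13. Foxp1, paralog of Foxp2, was at -0.39 (SE 0.13), Sox4 at -0.33 (SE 0.12), Lmo4, paralog of Lmo3, at -0.16 (SE 0.11) and Tle2 at 0.45 (SE 0.29).

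Of the 12 upper-layer regulators edgeR called none and DESeq2 called 1, 8 were negative, 6 with an unadjusted p under 0.05, and the median was -0.25. Pou3f1, a POU factor, was at -0.68 (SE 0.12), Rorb, of layer 4, at -0.54 (SE 0.15) and Id2 at -0.52 (SE 0.16). The median of the 10 deep-layer regulators was -0.24, so in this contrast the upper-layer list lay as low as the deep-layer set. In the glutamatergic gates the medians were -0.26 for the 10 regulators, -0.23 for the other deep-layer genes, -0.03 for paralogs and partners and -0.24 for the upper-layer regulators, and no listed gene other than Lmo3 was called by edgeR or DESeq2. An unadjusted p under 0.05 was reached there in the lower direction by 3 other deep-layer genes, 2 paralogs or partners and 6 upper-layer regulators, against 5.98% of all genes, and in the higher direction by 1 paralog or partner and 1 upper-layer regulator.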

How the data were processed

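Single-cell libraries from 7 embryonic cortices were analysed. For each embryo the authors deposited whole-number counts, that is UMIs per gene and barcode; reads were aligned with STAR to mm10, per the submitters' processing notes, and the sources used here do not give the annotation or the barcode filters. No row lacked a gene name. Counts were read as deposited, without a doublet caller, and 1 sample was 1 embryo of a single litter, so p-values measure the spread between littermates. Groups came from the sample titles; sex and batch are not among the labels.

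The 10 regulators, the marker and gene lists and the tests were chosen with earlier results of these data known, and the scoring rule of the gates was set after the files were seen. The genes named were the 10 regulators, the best-correlated other gene for each (Pearson r of log2(CPM + 10), genes reaching 50 CPM in a gate), up to 4 genes with the smallest p in each list, and Ash1l; a gene that this rule named in the upper-layer list is not reported here. UMIs were summed per embryo and gate and tested with edgeR 4.0.16 (quasi-likelihood, TMM, filterByExpr, R 4.3.3), with Benjamini-Hochberg adjustment over all genes and a threshold of 0.05; gate comparisons had the embryo as a term. Shares of cells were tested by exact permutation of embryos, two-sided. Clusters came from scanpy 1.11.5. On simulated counts the all-cell fit recovered 22.0%, 91.5% and 100% of genes changed 1.5-fold, 2-fold and 3-fold, and the deep-layer fit 10.0%, 87.0% and 100%. The simulation used only genes above a minimum mean count, the same dispersion for every gene and a fixed number of changed genes. The data need not share these settings, so the percentages do not give how often a change in a given regulator would be called. Thinning draws a fixed number of UMIs per cell without replacement and leaves out shallower cells, 3778 in mutants and 2629 in controls at 1000 UMIs. Confidence limits and shares cover counting error only. DESeq2 1.42.0, other filters, gates and thinning depths, and fits without each embryo were tried as alternatives.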

Additional observations from a re-analysis of the deposited data

Results flagged for a closer look

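Among the 40 sets of 4 mutant values examined (10 regulators in all cells and in the glutamatergic, deep-layer and upper-layer gates), 1 held a sample far from the others. Tle4 over all cells stood at 60.4 CPM in mutant 17, while the other 3 mutants lay between 47.6 and 49.7. Chance would give such a gap in about 1 of 20 sets. Mutant 17 also had the largest deep-layer share among mutants, at 7.72%.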

How the results depend on the processing

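No paired analysis was possible because mutants (10, 11, 12, 17) and controls (14, 15, 16) share no replicate number. Over all cells 0 regulators were called lower as reported; without the low-count filter 3 were, and DESeq2, a minimum of 300 genes, a mitochondrial limit of 5%, and leaving out control 16 with mutant 17 each gave 1, the range without single embryos being 0 to 1. In the glutamatergic gates the count was 1, and 3 without the low-count filter; Lmo3 was called under all 15 alternatives, with log2 differences from -1.01 to -0.68. In the deep-layer gate the count was 0 under each alternative. In the upper-layer gate the count was 2, against 3 without the low-count filter, 1 at a mitochondrial limit of 5%, 0 with at least 3 markers, 0 with clusters and 0 without control 16 and mutant 17, and 0 to 3 without single embryos. The difference in deep-layer share ran from -3.71 to -1.74 points over the alternatives on all kept cells, and from -3.56 to -2.10 without single embryos. Between gates, 8 to 10 regulators were called higher in the deep-layer gate under each alternative. The only values between gates that reversed were those of Foxp2 against interneurons: 0.10 at a mitochondrial limit of 5%, 0.66 with at least 3 markers, 0.15 with clusters, and from -0.15 to 0.22 without single embryos. The cause of these changes was not tested. The upper-layer fit, the comparison with migrating neurons, thinned gating and the share of glutamatergic cells were chosen after seeing the data. Depth limits detection per cell: 1000 UMIs leave 1 or 2 molecules of most regulators in a positive cell.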
